A study of Rattus rattus with 18 samples.

Results

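The miR-664 group comprised the probes for rno-miR-664-1-5p, rno-miR-664-2-5p and rno-miR-664-3p, which were chosen by name among the 761 rat microRNA probes of a brain microarray series. All 3 members were on the array, and all 3 were among the 532 probes that passed a filter on dim signals and were tested. The group was proposed with earlier results of these data in view, so the adjusted p-values below describe the fit over all 532 tested probes and are not independent support for the members.

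The tissue came from 9 Sprague Dawley rats, male per the methods, of unstated age. Of these, 3 were sham-operated controls, 3 underwent transient middle cerebral artery occlusion (tMCAO), in which a filament closes the artery and is then withdrawn, and 3 were labelled as remote limb postconditioning (PostC). The series design names tMCAO and PostC together without stating whether the PostC rats were also occluded, and the paper does not describe that group. Each rat gave 1 array of a region called core and 1 of a region called peri, so that 18 arrays in 6 groups of 3 were analysed. The labels place core in the cortex and peri in the striatum whereas the methods give the reverse, so the regions are named here only as core and peri. The methods give more than 1 time of sacrifice after reperfusion and do not state which applies to the arrays, and the labels and the methods name different kits for RNA extraction.

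MicroRNAs are short RNAs that guide Argonaute proteins to messenger RNAs, mainly through the seed at their 5′ end, and lower the output of the messages they pair with. Most are cut from a hairpin by Drosha and then Dicer, and each hairpin can yield a 5p and a 3p strand. A few derive from other structured RNAs: the human miR-664 hairpin overlaps a small nucleolar RNA (snoRNA) of the H/ACA class, a family that guides pseudouridine formation in ribosomal RNA. In the names miR-664-1 and miR-664-2, the number before the arm marks separate hairpin genes.

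The target sequences stored with the array spots were identical in all 18 array files. They are printed 5′ to 3′ with the seed, bases 2 to 8, in capitals, because the seed and the single differing base decide how far the 3 probes can be read separately.
rno-miR-664-1-5p: cUGGCUGGggaaaaagauugg
rno-miR-664-2-5p: cUGGCUGGggaaaaugauugg
rno-miR-664-3p: uAUUCAUUuacuccccagccua
The 5p targets were 21 bases long, shared the seed UGGCUGG and differed only by A15U, counted from 1 at the 5′ end with the miR-664-1-5p base first. No probe outside the group had either seed at bases 2 to 8. After its partner, the closest target to either 5p sequence was that of miR-3575, at 8 edits, and the closest to miR-664-3p was that of miR-92a-3p, at 7 edits.

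The 5p and 3p targets also held a stretch of 9 complementary bases, as opposite strands of 1 hairpin can. The stretch is shown in capitals, at bases 3 to 11 of the 5p and 12 to 20 of the 3p sequence.
rno-miR-664-2-5p: cuGGCUGGGGAaaaugauugg
rno-miR-664-3p: uauucauuuacUCCCCAGCCua
The 3p strand is given once on this array and could not be assigned to hairpin 1 or 2.

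Every probe was printed in 4 spots, and detection on an array required the median of these to be brighter than a limit, the median of that array's 612 empty spots plus 3 scaled median absolute deviations. By this limit the arrays detected 188 to 605 of the 761 microRNA probes. In peri the number was 189 to 230 after tMCAO and 318 to 471 in sham, so fewer probes of any kind were detected in tMCAO peri. In core it was 233 to 447 after tMCAO and 336 to 509 in sham. The 6 neuronal microRNAs listed as tissue markers, such as miR-124-3p and miR-128-3p, were detected on every array. The array of sham core rat 2 stood apart in 5 of 6 pairs of control spots named as mismatch and match, with the mismatch at 35.9% to 72.7% of its partner against at most 2.41% on any other array. In the other pair, PUC2MM-20B with PUC2PM-20B, it read 1.62% and the next array 1.37%. Differences of the miR-664 members from sham are therefore also given without sham rat 2, and those of other microRNAs are not.

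The miR-664-3p probe was detected on 15 of the 18 arrays, miR-664-1-5p on 9 and miR-664-2-5p on 7. With a limit taken from the dimmest 25% of microRNA spots, these numbers became 18, 17 and 17. Much of the detection call for the 5p probes therefore depended on how bright the empty spots were. On tMCAO core rat 3 the empty spots had a median of 152 units, against 80.3 units for the microRNAs. The same order held on tMCAO peri rat 3 (221 against 129) and PostC peri rat 3 (125 against 99.4). It also held on PostC core rats 1 (96.5 against 60.6) and 2 (278 against 175), but on no sham array. Detection counts in tMCAO and PostC are therefore not directly comparable with those in sham. The 4 spots of a probe differed little: the median SD between spots was 0.18 for miR-664-1-5p, 0.15 for miR-664-2-5p and 0.12 for miR-664-3p on the log2 scale. The spot intensities of all members are plotted against the limit of each array.

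**Figure D1:**
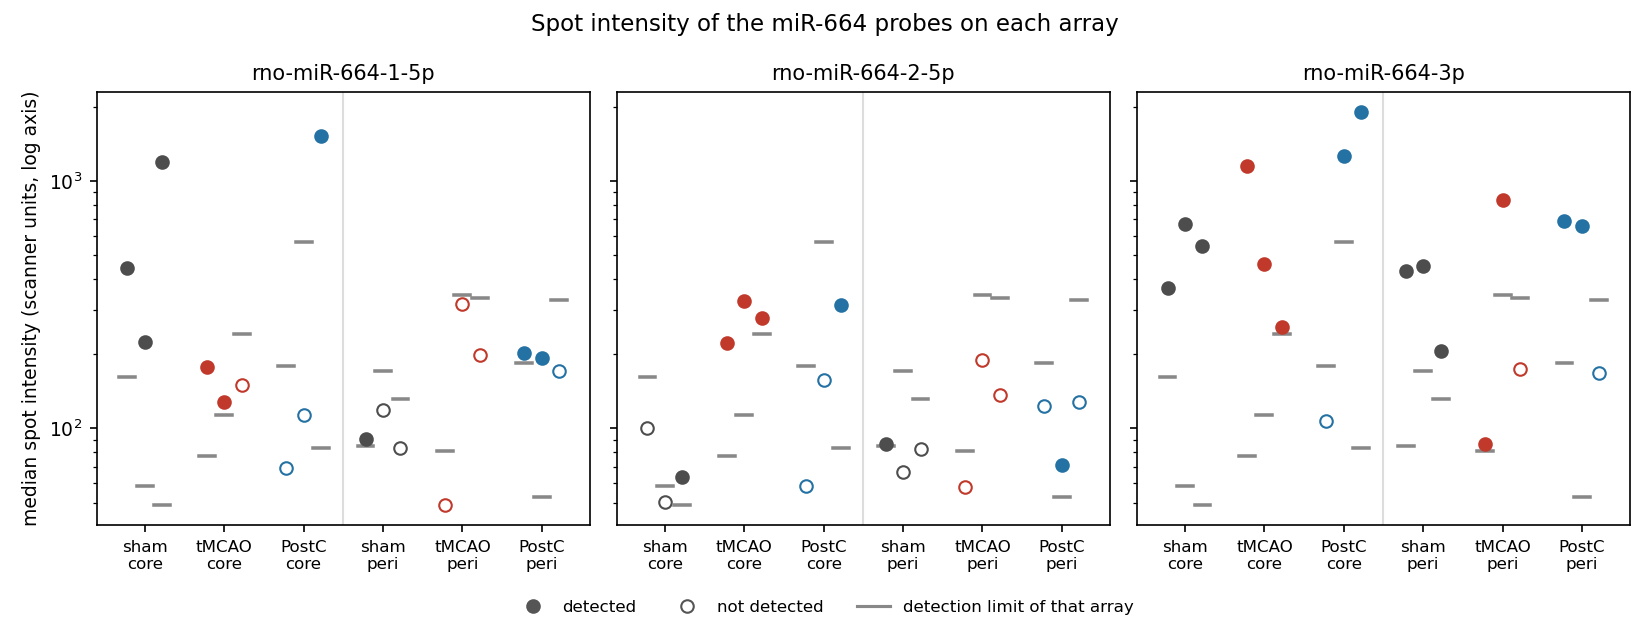
Median spot intensity in scanner units on a log axis for each member on each of the 18 arrays; points are arrays, grey dashes the detection limit of the same array, filled points detected and open points not. miR-664-2-5p was detected on all 3 tMCAO core arrays, miR-664-1-5p on all 3 sham core arrays, and neither 5p probe on any tMCAO peri array. The tMCAO peri arrays detected only 189 to 230 of the 761 microRNA probes.

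The core of tMCAO rats differed from that of sham-operated rats in miR-664-2-5p, 1 of the 2 5p products, which was several times higher after occlusion. Before normalization, its median spot read 220, 328 and 279 units in tMCAO core rats 1 to 3. In sham core it read 101, 50.2 and 63.5 units. All 3 tMCAO core arrays lay above every sham core array, and the probe was detected on 3 of 3 tMCAO core arrays but on 1 of 3 sham core arrays, that of rat 3.

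After normalization miR-664-2-5p reached 8.55 ± 0.21 on the log2 scale in tMCAO core and 6.58 ± 0.18 in sham core (mean ± SD, n = 3 rats each). The difference was 1.97 on the log2 scale (SE 0.28), with an adjusted p of 0.0188 (limma with Benjamini-Hochberg adjustment), the smallest p among the 532 probes. Of the tested probes 3.38% were called in this comparison, 9 higher and 9 lower after tMCAO, and 16.7% had all tMCAO values above all sham values. Of the tested probes 1.69% were called higher. With undetected sham arrays raised to the dimmest detected signal on them, tMCAO core was at least 3.28-fold higher. In bulk tissue, a change in the number of cells of a type and a change in RNA per cell cannot be told apart.

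The same order was seen without any scaling between arrays, since the probe ranked at percentiles 68.1 to 76.0 among the microRNA probes of the tMCAO core arrays and at 32.3 to 41.7 on the sham core arrays. In the authors' normalized table the values were 206, 295 and 250 in tMCAO core and 13.0, 16.1 and 26.7 in sham core. Without sham rat 2 the core difference was 1.88 (SE 0.32, adjusted p = 0.0421, limma). The call was lost without tMCAO rat 2 (difference 1.89, adjusted p = 0.0603), without sham rat 1 (1.99, adjusted p = 0.0718) and without sham rat 3 (2.06, adjusted p = 0.0665), with little change in size.

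In peri, miR-664-2-5p was not detected on any tMCAO array and on 1 of 3 sham arrays. Its median spot read 57.8, 189 and 136 units in tMCAO peri, against limits of 80.9, 346 and 338 units on the same arrays. Sham peri read 86.0, 66.2 and 82.2 units. The raw values overlapped and the normalized ones did not, at 7.28 ± 0.09 and 6.56 ± 0.07 (SD, n = 3), as in 15.6% of tested probes higher after tMCAO. The difference was 0.72 without a call (adjusted p = 0.131, limma), and 0.68 without sham rat 2 (adjusted p = 0.305). The adjusted p was 0.00776 without PostC rat 3, with the SE at 0.12 in place of 0.19. No fold is given, since the probe was undetected on every tMCAO peri array. Of the tested probes 0.564% were called in peri, all 3 higher after tMCAO, whereas median scaling gave 17 higher and 111 lower.

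Averaged over core and peri of each rat, miR-664-2-5p stood at 7.92 ± 0.12 in tMCAO rats, against 6.57 ± 0.13 in the sham-operated rats (SD, n = 3). The 3 tMCAO rats, at 7.80, 8.04 and 7.91, lay above the 3 sham rats, at 6.59, 6.44 and 6.69. The difference was 1.35 on the log2 scale (SE 0.19) with an adjusted p of 0.00555 (limma), again the smallest p of the 532 probes. In this comparison 11.8% of the tested probes were called, 24 of them (4.51%) higher and 39 lower, and 17.7% had all tMCAO rats above all sham rats. Without sham rat 2 the difference was 1.28 with an adjusted p of 0.0126 (limma). No fold is given for rat means, since they include peri arrays on which the probe was mostly not detected.

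Within tMCAO rats miR-664-2-5p was higher in core than in peri in 3 of 3 rats, by 1.03, 1.35 and 1.44 on the log2 scale (adjusted p = 0.0478, limma). Since the probe was below the limit on every tMCAO peri array, the rise in core was at least 1.30-fold. In this comparison 0.94% of the tested probes were called. The call was lost when any rat other than PostC rat 3 was left out, with adjusted p-values of 0.0681 to 0.492. In sham-operated rats the core and peri values differed by 0.04, -0.10 and 0.11, and in PostC rats by 0.32, 0.14 and 0.14. The change after tMCAO was larger in core than in peri by 1.26 (SE 0.34) but did not pass the test (unadjusted p = 0.00454, adjusted p = 0.425, limma), and 0% of probes were called for this difference by limma or the methods' t-test, with 46 at an unadjusted p under 0.05 by limma. It was 1.20 without sham rat 2 (adjusted p = 0.980).

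PostC rats had less miR-664-2-5p in core than tMCAO rats after normalization. The PostC core arrays read 58.4, 157 and 315 units, and only that of rat 3 was above its limit, in a group whose normalized values were 7.04, 6.84 and 7.52. The raw values overlapped with those of tMCAO core, since PostC rat 3 read above tMCAO rats 1 and 3. On the normalized scale every PostC core rat lay below every tMCAO core rat, as in 6.58% of tested probes. The difference was -1.42 on the log2 scale (SE 0.28) with an adjusted p of 0.0323 (limma). This call held under only 8 of the 14 other settings. With the 2 undetected PostC core arrays raised to the dimmest detected signal on them, tMCAO core was at least 1.47-fold higher. In this comparison 2.26% of the tested probes were called, 11 higher in PostC and 1 (0.188%) lower, which was miR-664-2-5p. Other scalings and background corrections called 0 to 5 probes lower. The call held without sham rat 2 (adjusted p = 0.0314) or PostC rat 3 (0.0238) and was lost without any 1 of the other 7 rats, with adjusted p-values of 0.0586 to 0.112 and differences between -1.54 and -1.27.

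In the rat means the difference of miR-664-2-5p between PostC and tMCAO was -0.88 (SE 0.19) with an adjusted p of 0.0219 (limma). Of the tested probes 5.64% were called and 0.564% were called lower, and 7.52% had every PostC rat below every tMCAO rat, as miR-664-2-5p did. This call was lost without tMCAO rat 1 (adjusted p = 0.0591) or 2 (0.109) and without PostC rat 1 (0.0731) or 2 (0.103). In peri the PostC and tMCAO values overlapped and the difference was -0.34 (SE 0.19, adjusted p = 0.725, limma). Of the tested probes 0% were called there, with 31 at an unadjusted p under 0.05, but without PostC rat 3 the difference was -0.57 with an adjusted p of 0.0273, beside 59 probes called in that fit. The PostC levels of miR-664-2-5p differed from sham by 0.46 in the rat means (SE 0.19, adjusted p = 0.291), 0.56 in core (SE 0.28, adjusted p = 0.340) and 0.37 in peri (SE 0.19, adjusted p = 0.991, limma), none past the test. These were 0.40, 0.46 and 0.33 without sham rat 2, with adjusted p-values of 0.375, 0.524 and 0.971. Against sham, 0.188% of probes were called in the rat means and 0% in core or peri, with 90 and 14 at an unadjusted p under 0.05. All 3 PostC rats lay above all 3 sham rats in each of these comparisons, as in 10.7%, 10.9% and 3.38% of all tested probes.

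Over the 6 groups the normalized level of miR-664-2-5p fell from tMCAO core (8.55) through tMCAO peri (7.28), PostC core (7.13), PostC peri (6.94) and sham core (6.58) to sham peri (6.56). Only the step from tMCAO core to tMCAO peri, 1.27, exceeded the larger SD of the 2 groups. The other neighbours overlapped. The probe was detected on 3 of 3 tMCAO core arrays, 0 of 3 tMCAO peri arrays and 1 of 3 arrays in each other group. The order below tMCAO core is therefore uncertain, and the step from tMCAO core to tMCAO peri is known only as at least 1.30-fold. The normalized values of each rat are plotted by group.

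**Figure D2:**
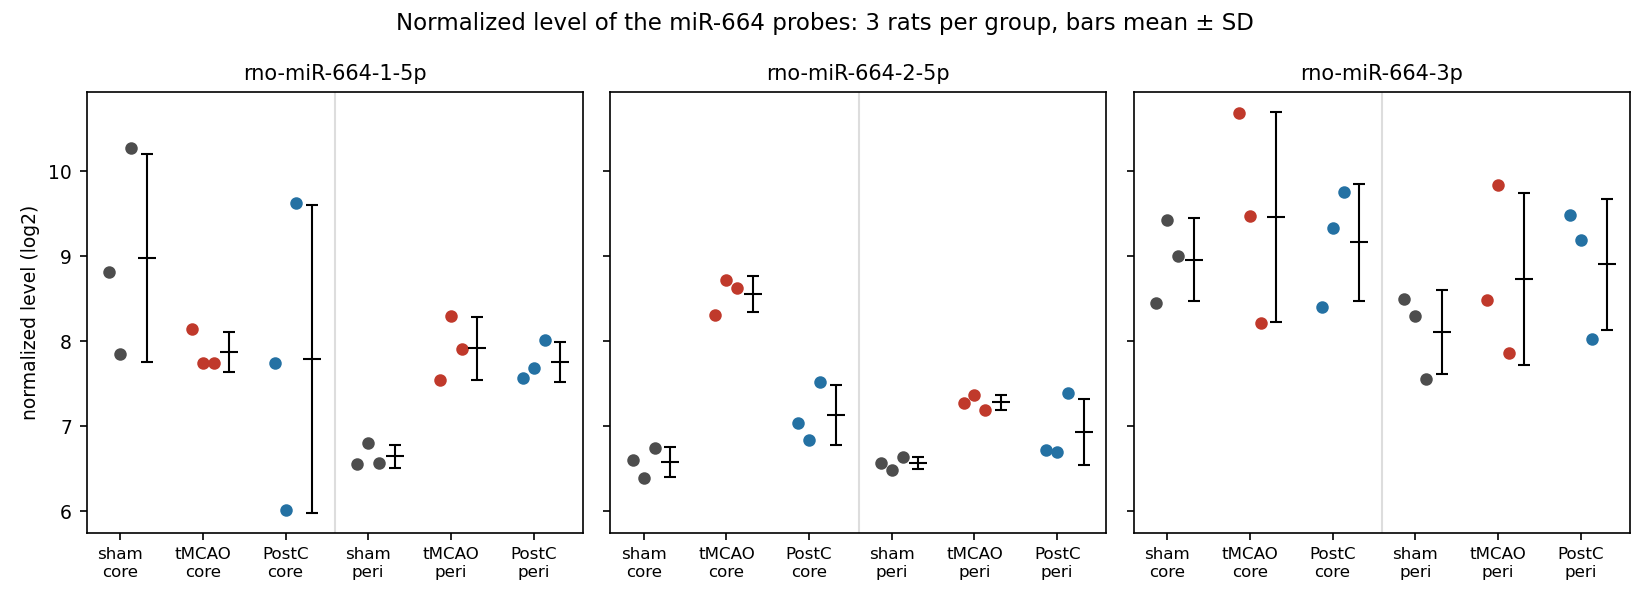
Normalized log2 level of each member by group; coloured points are the 3 rats of a group and the black bar is their mean ± SD. The 3 tMCAO core points of miR-664-2-5p, from 8.31 to 8.72, lie above all its other points, while the groups of miR-664-3p overlap.

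The partner that differs by 1 base, miR-664-1-5p, had its highest mean in sham core and not in tMCAO core. Its spots read 443, 223 and 1189 units in sham core and the probe was detected on 3 of 3 of these arrays, by 2.75 to 24.2 times the limit. In tMCAO core it read 176, 128 and 149 units and was detected in rats 1 and 2. In PostC core it read 68.8, 113 and 1518 units, with rat 3 alone above its limit.

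In core, miR-664-1-5p averaged 7.87 ± 0.23 on the normalized log2 scale in tMCAO rats and 8.98 ± 1.22 in sham-operated rats (SD, n = 3). The difference, -1.11 (SE 0.85), did not pass the test (adjusted p = 0.441, limma), and although the raw values did not overlap, the normalized value of sham rat 2 (7.85) lay below that of tMCAO rat 1 (8.14). Sham core spread widely, at 8.81, 7.85 and 10.27, and single sham rats decided the size of the difference: it was -1.67 without sham rat 2 (adjusted p = 0.423) and -0.46 without sham rat 3 (adjusted p = 0.762). PostC core spread further, from 6.01 to 9.63, and its difference from sham was -1.19 (SE 0.85, adjusted p = 0.498, limma), or -1.75 without sham rat 2 (adjusted p = 0.432).

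In peri the miR-664-1-5p probe was dim throughout. It read 90.7, 119 and 83.1 units in sham peri, where the array of rat 1 alone was above its limit. In tMCAO peri it read 48.8, 317 and 199 units, below the limit on each array. The normalized levels, 7.92 ± 0.37 in tMCAO peri and 6.64 ± 0.14 in sham peri (SD, n = 3), did not overlap, as in 15.6% of tested probes higher after tMCAO, and had an adjusted p of 0.0312 (limma). This was 1 of the 3 calls in that comparison, but with no detected value in tMCAO peri no fold is given. This call did not hold under 8 of the 14 other settings, nor without tMCAO rat 1 or 2 or any 1 sham rat (adjusted p = 0.0768 to 0.175), and reached an adjusted p of 0.454 at most.

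PostC peri read 202, 193 and 170 units for miR-664-1-5p, and 2 of these 3 arrays were above their limits. Its normalized mean of 7.76 ± 0.23 was 1.11 above sham peri (SE 0.25, adjusted p = 0.299, limma), which was the smallest p of that comparison. The 2 groups did not overlap, as in 3.38% of tested probes higher in PostC. The difference was 1.19 without sham rat 2 (adjusted p = 0.362).

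In sham-operated rats miR-664-1-5p was higher in core than in peri in 3 of 3 rats, by 2.25, 1.05 and 3.71 on the log2 scale. The mean gap of 2.33 (SE 0.65) had rank 5 by p among the 532 probes and did not pass the test (unadjusted p = 0.0059, adjusted p = 0.628, limma). In this comparison 0% of probes were called by limma, with 29 at an unadjusted p under 0.05. The gap was 2.98 without sham rat 2 (adjusted p = 0.998). After tMCAO the same gaps were 0.59, -0.56 and -0.17, and in PostC rats 0.17, -1.67 and 1.61, with both signs in each group. Averaged over regions, the 3 conditions differed little, at 7.81 ± 0.56 in sham, 7.90 ± 0.11 in tMCAO and 7.78 ± 0.99 in PostC (SD, n = 3), and no comparison of rat means passed the test. Without sham rat 2 the rat means differed from sham by -0.16 in tMCAO and -0.28 in PostC, with adjusted p-values of 0.881 and 0.813.

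In order of level, miR-664-1-5p went from sham core (8.98) through tMCAO peri (7.92), tMCAO core (7.87), PostC core (7.79) and PostC peri (7.76) to sham peri (6.64). The last step, 1.11, was the 1 step above the larger SD of its groups, and all higher neighbours overlapped. The probe was detected on 0 of 3 tMCAO peri, 1 of 3 PostC core and 1 of 3 sham peri arrays, so this order and its steps are not exact.

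The opposite strand, miR-664-3p, was the member detected most often, and its tMCAO and sham values overlapped in core and peri. In core it read 369, 670 and 546 units in sham-operated rats, against 1146, 463 and 256 units after tMCAO and 107, 1260 and 1907 units in PostC rats. In peri the sham arrays read 432, 453 and 205 units, those of tMCAO 86.0, 836 and 173 units and those of PostC 688, 657 and 167 units. The probe was detected on every sham array and every tMCAO core array, and missed on 1 array in each of tMCAO peri, PostC core and PostC peri.

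Normalized miR-664-3p levels ranged in mean from 8.11 ± 0.50 in sham peri to 9.46 ± 1.24 in tMCAO core (SD, n = 3), and no step between neighbouring groups exceeded the larger SD. The tMCAO level differed from sham by 0.50 in core (SE 0.63, adjusted p = 0.643), 0.62 in peri (SE 0.52, adjusted p = 0.593) and 0.56 in the rat means (SE 0.40, adjusted p = 0.345, limma). PostC differed from tMCAO by -0.06 in the rat means (SE 0.40, adjusted p = 0.951) and from sham by 0.50 (SE 0.40, adjusted p = 0.618, limma), with all 3 PostC rats above all 3 sham rats, as in 10.7% of tested probes. Without sham rat 2 the tMCAO differences were 0.73 in core, 0.71 in peri and 0.72 in the rat means, and the PostC difference 0.66, with adjusted p-values of 0.300 to 0.652. The SEs of these differences, 0.40 to 0.63, were larger than those of miR-664-2-5p, 0.19 to 0.28. Without tMCAO rat 3, whose rat mean of 8.04 was the lowest of the 9, the difference of rat means from sham was 1.08 with an adjusted p of 0.0276 (limma). It was 0.31 without tMCAO rat 1 (adjusted p = 0.685) and 0.28 without tMCAO rat 2 (adjusted p = 0.750, limma).

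**Figure D3:**
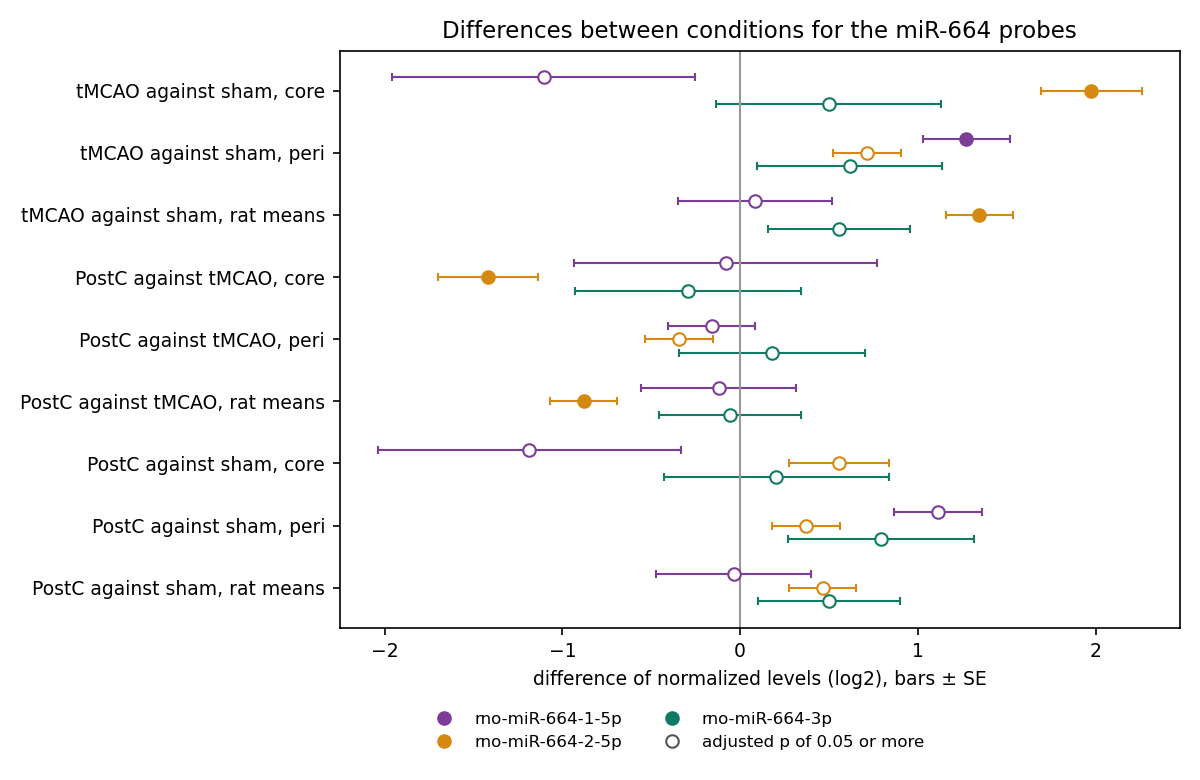
Differences between conditions for the 3 members on the normalized log2 scale, with bars of ± SE from limma; filled points have an adjusted p under 0.05. miR-664-2-5p has 4 filled points, at 1.97 and 1.35 for tMCAO against sham and -1.42 and -0.88 for PostC against tMCAO, and miR-664-1-5p has 1, in peri, where it was not detected on any tMCAO array.

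The 5p probes were compared with other probe pairs whose targets are 1 edit apart, since RNA bound to 1 of such probes may also bind the other. Among the tested probes there were 23 such pairs. The 5p pair of miR-664 had core differences between tMCAO and sham of 1.97 and -1.11, a gap of 3.08, which was the widest of the 23. The other 22 pairs had a median gap of 0.395, and the next widest was 3.00, for miR-181a-5p and miR-181c-5p. The gap rests on the miR-664-1-5p difference, which was not called. The gap also uses sham core values of miR-664-2-5p, detected on 1 of 3 of those arrays, so its size and rank are not exact. With 1 tMCAO or sham rat left out it was 2.52 to 3.55, and without tMCAO rat 3, sham rat 1 or sham rat 3 it came after that of the miR-181 pair. These gaps are a description: miR-664-2-5p helped to bring the pair into view, and the gap was not tested.

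Over the 18 arrays the normalized levels of the 5p probes correlated with r = 0.17, number 3 from the lowest among the 23 pairs, and the other 22 pairs had a median r of 0.79. Both 5p probes are dim, and their correlation includes arrays on which neither was detected. The miR-664-3p level correlated with r = 0.29 with either 5p probe. All these values share the 18 arrays and their normalization. Cross-hybridization between the 5p probes was not tested, and the array cannot show which hairpin a bound molecule came from.

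**Figure D4:**
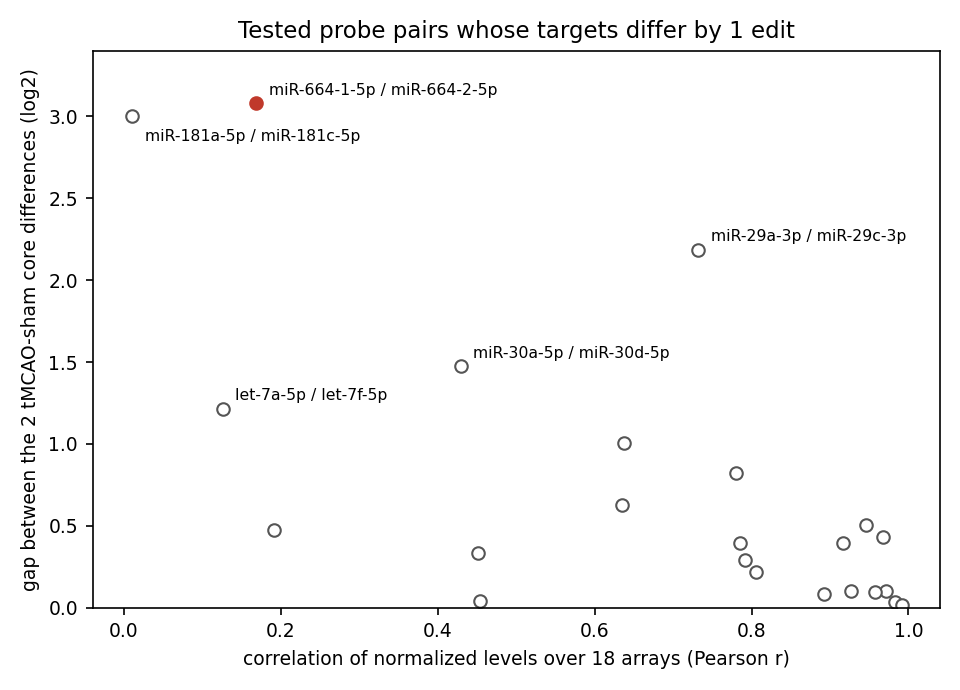
Tested probe pairs with targets 1 edit apart, by the correlation of their normalized levels over 18 arrays (horizontal axis, Pearson r) and the gap between their core differences of tMCAO from sham (vertical axis, log2). The miR-664 5p pair (filled) lies at r = 0.17 and a gap of 3.08, beside miR-181a-5p with miR-181c-5p, while 14 of the other 22 pairs lie above r = 0.7.

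By the pattern over the 18 arrays, the probes most like miR-664-2-5p were miR-505-5p and let-7b-5p (r = 0.88 each) and miR-155-5p, a microRNA of activated leukocytes (r = 0.84). Of these, miR-505-5p was detected on 5 arrays, let-7b-5p on 18 and miR-155-5p on 3. Let-7b-5p was also called higher in tMCAO core, by 1.09 (adjusted p = 0.0354, limma). So was miR-155-5p (adjusted p = 0.0318, limma), at least 2.08-fold, with detection on 2 of 3 tMCAO core and 0 of 3 sham core arrays, so that it passed the filter on dim probes mainly through tMCAO core. The 3 targets lay 12 to 14 edits from that of miR-664-2-5p. For miR-664-1-5p no probe was as alike, with the highest r at 0.58, for miR-99b-3p. Closest to miR-664-3p were miR-365-3p (r = 0.81), miR-328b-3p (0.77) and miR-3102 (0.76), and miR-3102 was also among the 3 closest targets to it, at 9 edits with a shared run of 8 bases. These correlations are over the 18 arrays, which share their normalization, and are given as a description.

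MicroRNAs listed from general knowledge as made without Drosha, or from a snoRNA, are set beside the group. How the rat miR-664 products are made was not analysed here. Of 12 listed, 9 were on the array and tested, namely miR-1839-5p and -3p from a snoRNA, miR-320-3p, miR-320-5p and miR-484 from hairpins cut without Drosha, and miR-877, miR-702-5p, miR-702-3p and miR-1224 from short introns. In core after tMCAO none of the 9 was called higher and 1, miR-320-5p, was called lower, with a difference of -2.22 on the log2 scale (SE 0.42, adjusted p = 0.0293, limma), beside 1.69% of all tested probes called in each direction. Both strands of miR-1839 had positive differences that did not pass the test, 0.91 (SE 0.42, adjusted p = 0.243) for the 5p and 0.41 (SE 0.37, adjusted p = 0.504) for the 3p strand. The median over the 9 was 0.41, beside -0.05 over all tested probes. In the rat means miR-1224 was called higher, by 1.08 (SE 0.31, adjusted p = 0.0468), and miR-320-5p lower, at -1.85 (SE 0.36, adjusted p = 0.00951, limma), beside 4.51% and 7.33% of all tested probes called higher and lower.

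Other measures moved with miR-664-2-5p in tMCAO core. The summed normalized level of 6 leukocyte microRNAs was 7592 to 12363 units in tMCAO core, 3297 to 4031 in sham core and 5968 to 8372 in PostC core. Only miR-150-5p and miR-146a-5p of the 6 were detected on all 18 arrays, so the sum includes values of probes below the limit. Of these 6, miR-155-5p and miR-150-5p were called higher in core, beside 1.69% of all tested probes. The miR-155-5p probe was detected on 2 of 3 tMCAO core and 0 of 3 sham core arrays. It passed the filter mainly through tMCAO core, so its call is not separate support. For miR-146a-5p the difference was 0.96 (adjusted p = 0.152, limma). It was -0.46 for miR-142-5p (adjusted p = 0.401, limma), with detection on 2 of 3 sham core and 0 of 3 tMCAO core arrays. Of the others, miR-142-3p was detected on 1 of 18 arrays, in sham core, and miR-223-3p, a neutrophil microRNA, was detected on 2 of 3 tMCAO core arrays and 1 of 3 sham core arrays. The core difference of miR-223-3p was 1.35 and was not called (adjusted p = 0.308, limma). In tMCAO peri the leukocyte sum was 3468 to 4713 units, near the 3073 to 3594 of sham peri. Their part in the miR-664-2-5p result was not tested.

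Beside 3.38% of all tested probes called in core and 11.8% in the rat means, none of 3 oligodendrocyte microRNAs was called after tMCAO. Their core differences were -3.32 for miR-338-3p (adjusted p = 0.0903), -2.28 for miR-219a-5p (adjusted p = 0.106), detected on 3 of 3 sham core and 0 of 3 tMCAO core arrays, and 0.37 for miR-219a-2-3p (adjusted p = 0.576, limma). Of 3 red blood cell microRNAs 2 were tested. In the rat means miR-486 was called higher, by 1.39 (adjusted p = 0.00951, limma), beside 4.51% of all tested probes called higher. Its core difference was 1.91 (adjusted p = 0.0922, limma). In core miR-451-5p differed by -0.014 (adjusted p = 0.986, limma), and miR-144-3p was detected on no array. Of 3 muscle microRNAs, miR-1-3p was called lower in the rat means, at -1.12 (adjusted p = 0.0103, limma), beside 7.33% of all tested probes called lower. There miR-133a-3p differed by 0.65 (adjusted p = 0.0811) and miR-206-3p by -0.23 (adjusted p = 0.526, limma). The part of these cells in the miR-664 values was not tested.

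Some of the control spots for 5S ribosomal RNA moved the same way in core. The probe 5S-b1 read 32431 to 42208 units in tMCAO core, 17255 to 31596 in PostC core and 13785 to 17375 in sham core. Of 6 such control probes, 3 lay higher on every tMCAO core array than on any sham core array, before any normalization. The probes 5S-b3, 5S-b4 and 5S-b6 overlapped, with 5S-b3 at 33937 to 39682 units in tMCAO core and 31226 to 43237 in sham core. The summed level of the 6 neuronal microRNAs was lower in tMCAO core, at 62204 to 71293 units, than in sham core, at 81384 to 88077 units. Of the 6, 3 were called lower in the rat means, beside 7.33% of all tested probes, and 0 in core, beside 1.69%. The 6 did not move together in core: miR-128-3p differed by 0.34 (adjusted p = 0.206) and miR-138-5p by 0.41 (adjusted p = 0.535, limma). For miR-124-3p the core difference was -0.21 (adjusted p = 0.469, limma). In tMCAO peri the same 5S-b1 control read 7407 to 10525 units, against 7436 to 16690 in sham peri. The other controls that were brighter in core, 5S-b2 and 5S-b5, lay lower on every tMCAO peri array, at 5443 to 6582 and 11985 to 13566 units, than on any sham peri array, at 7348 to 16624 and 14126 to 25269 units. The part of these measures in the miR-664 values was not tested.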

How the data were processed

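MicroRNAs were measured on 18 single-colour (Cy5) arrays from 9 rats. Per the file headers, the authors deposited the median intensity of each of 3968 spots, with no background subtraction, and a table of background-subtracted intensities normalized by locally weighted regression. From the spots, background was corrected with normexp (offset 50), log2 values were normalized by cyclic loess with control spots at weight 0, and the 4 spots of a probe were averaged. The files give no local background, so detection used the empty spots. Of 761 probes, the 532 seen on 3 or more arrays entered limma 3.58.1 in R 4.3.3 (lmFit, eBayes, trend), and p-values were adjusted over them by Benjamini-Hochberg (threshold 0.05). Rats were the replicates, as their labels number them, and the 3 conditions shared 1 estimate of the spread. Every difference is relative to the other microRNAs. The smallest p an exact permutation of 3 rats and 3 rats allows is 0.1. The number of arrays limits the precision.

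The members, the lists and the pairs of near-identical probes were chosen with earlier results of these data known. Named probes are the members, for each the 3 most alike in pattern and the closest targets, and list members past the threshold; others named among the 9 or 6 of a list, and the widest pair, were chosen after their values were seen. The fit was checked on simulated data. Alternatives were another background correction, other normalizations, the deposited table with floors of 50 and 1, other filters, no variance trend, the methods' t-test, only the 2 groups compared, the replicate number as a block, a GC correction, the median over spots and leaving out each rat. Same-numbered rats of different conditions are different animals and were not paired. Genome positions were not analysed here. Figures were drawn with Python 3.11.15, pandas 2.3.3 and matplotlib 3.10.9.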

Additional observations from a re-analysis of the deposited data

Results flagged for a closer look

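The miR-664-1-5p differences between tMCAO and sham had opposite signs in the 2 regions, -1.11 in core, which was not called, and 1.27 in peri: all 3 tMCAO rats lay below the sham mean in core and above it in peri. The core change minus the peri change was -2.38 on the log2 scale (SE 0.92), which did not pass the test over all probes (unadjusted p = 0.0298, adjusted p = 0.454, limma). Without sham rat 2 it was -3.02 (adjusted p = 0.980), and it ranged from -3.02 to -1.69 with any 1 rat left out. The probe was not detected on any tMCAO peri array. For PostC against sham the core change minus the peri change was -2.30 (SE 0.92, adjusted p = 0.397, limma).

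Control spots for 5S ribosomal RNA, used in no comparison, were brighter on every tMCAO core array than on any sham core array for 3 of 6 probes. The median tMCAO core array read 32892 units for 5S-b1, 25194 for 5S-b2 and 30281 for 5S-b5, and the brightest sham core array 17375, 16423 and 26401 units. Their relation to the miR-664 values was not tested.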

How the results depend on the processing

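For miR-664-2-5p (rno-miR-664-2-5p) the rise after tMCAO in the rat means passed the threshold under all 15 alternatives and without any 1 rat. Its size was 1.28 to 1.41 on the log2 scale with a rat left out, but 5.27 with plain subtraction and 2.79 from the deposited table with a floor of 1, against 1.35 in the report.

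In core the same rise passed under 13 of 14 alternatives. It missed the threshold with the control spots kept in the loess, an alternative added after seeing the data (1.76, adjusted p = 0.0513), was 6.42 with plain subtraction and 3.80 from the deposited table with a floor of 1 against 1.97, and lay between 1.88 and 2.09 with a rat left out, passing in 6 of 9 cases. In peri the miR-664-2-5p difference passed with median scaling (0.63) and with only the 2 groups compared (0.72), and lay between 0.67 and 0.76 with a rat left out. The core change minus the peri change of rno-miR-664-2-5p passed only from the deposited table with a floor of 50 (1.87 for tMCAO against sham, -1.80 for PostC against tMCAO).

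The lower core level of rno-miR-664-2-5p in PostC than in tMCAO missed the threshold with plain subtraction (-4.10), the added loess (-1.39), and at the main size of -1.42 without a filter, with only the 2 groups compared, with the methods' t-test and with the replicate block (adjusted p = 0.0901). It lay between -1.61 and -1.27 with a rat left out. In the rat means it missed with the added loess (-0.79), the deposited table with a floor of 1 (-1.66) and the methods' t-test (-0.88), and ranged from -1.09 to -0.75 with a rat left out. In peri it passed in 0 of 14 alternatives (-2.11 to -0.19). With a rat left out it ranged from -0.57 to -0.22 and passed in 1 of 9 cases, without PostC rat 3 (adjusted p = 0.0273).

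The core level above peri in tMCAO rats for rno-miR-664-2-5p missed with plain subtraction (2.60), quantile normalization (1.60), median scaling (1.26), the deposited table with a floor of 1 (1.87), the median over spots (1.25) and the added loess (1.41), and ranged from 1.19 to 1.39 with a rat left out, passing in 1 of 9 cases.

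The peri difference of rno-miR-664-1-5p missed with plain subtraction (3.17), quantile normalization (0.63), median scaling (0.75), the deposited table with floors of 50 (1.20) and 1 (1.80), the added loess (1.17), and, at 1.27, without a variance trend and with the methods' t-test. It ranged from 1.08 to 1.46 with a rat left out. The rat-mean difference of rno-miR-664-3p changed sign with median scaling (-0.090) and ranged from 0.28 to 1.08 with a rat left out. Same-numbered rats of different conditions are different animals, and their deviations correlated between -0.40 and 0.23. The replicate block changed no other member call, and left 3 probes called in core and 7 in peri for tMCAO against sham and 3 in core for PostC against tMCAO.

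The 34 member comparisons that never passed kept their sign in 692 of 772 alternative values. A filter for detection on all 18 arrays kept 141 probes and no member. The number of probes called also moved: for tMCAO against sham it was 63 in the rat means (21 to 130 under alternatives, 8 to 96 with a rat left out), 18 in core (3 to 40, and 0 to 27) and 3 in peri (0 to 128, and 0 to 36), and for PostC against tMCAO 30 in the rat means (3 to 41, and 9 to 46) and 12 in core (0 to 30, and 3 to 21). For core against peri in tMCAO rats it was 5 (0 to 10, and 0 to 9). Median scaling moved the median of all probes in peri to -0.42 and the peri calls from 3 higher and 0 lower to 17 higher and 111 lower, and the calls in the rat means to 26 higher and 104 lower. The cause of these changes was not tested.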
